A study of Mus musculus with 5 samples.

Results

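The regions described here are H3K9ac peaks that lay just downstream of transcription start sites and were called both in DOP-treated and in untreated STHdh Q111 cells. They were chosen by measured peak positions. A member was a peak whose interval overlapped a peak of the other condition's list by at least 1 bp and whose called centre lay 0 to 1000 bp downstream of the nearest start site of a protein-coding transcript. Of 34286 peaks in the DOP-treated list, 17139 were members (95% Wilson interval of the share 49.5% to 50.5%). Of 33355 peaks in the untreated list, 17497 were members (52.5%, 51.9% to 53.0%). These intervals cover the counting of peaks only. Over the whole lists 80.0% of DOP-treated peaks and 83.3% of untreated peaks overlapped a peak of the other list. Sharing is part of how members were chosen, so nothing is read from the share of members that were shared.

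The cells are STHdh Q111/Q111 mouse striatal progenitor cells of a C57BL/6 strain, an established line that carries mutant huntingtin on both alleles. Both groups were kept for 24 h in serum-free medium, 1 with 4 mM 4-deoxypyridoxine hydrochloride (DOP), an inhibitor of the sphingosine-1-phosphate lyase SPL, and 1 with vehicle, which is called untreated here. H3K9ac was immunoprecipitated from 2 samples of each group, and 1 IgG sample of the same cells was not analysed here. Each group is represented by 1 peak list, so no value below has a replicate error, and differences are differences between 2 lists and not a test of the treatment.

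H3K9ac is the acetylation of histone H3 at lysine 9, a mark laid down by histone acetyltransferases and removed by histone deacetylases. It is found at the promoters of active and poised genes, and is typically strongest on the nucleosomes next to the start site, while the start site itself is often depleted of nucleosomes. Many promoters of broadly expressed mammalian genes lie in CpG islands, stretches rich in C, G and the CpG dinucleotide.

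Members differed widely in sequence, and 8 intervals of the DOP-treated list show this range. They are given on the mm9 assembly, 5′ to 3′ on the strand of the gene, with each CpG in capitals. The first pair comes from the extremes of GC content, in introns of Camta1, which encodes a calmodulin-binding transcription activator (chr4:151235465-151235664, 38 CpG), and of Wdr70 (chr15:8048477-8048676, 0 CpG). The next 3 belong to the matched peaks of the lists with the highest and lowest mean rank by score over both lists. They lie in coding exons of the predicted genes Gm10800 (chr2:98507191-98507390 and chr2:98506655-98506854) and Gm5428 (chr10:110562965-110563164). The last 3 are an intron of Rfwd3, a ubiquitin ligase gene whose peak was among the highest outside predicted genes (chr8:113823661-113823860), and the intervals of Snx21, a sorting nexin gene (chr2:164611625-164611824), and A930001N09Rik (chr17:26852750-26852949), whose scores ranked very differently in the lists.
Camta1: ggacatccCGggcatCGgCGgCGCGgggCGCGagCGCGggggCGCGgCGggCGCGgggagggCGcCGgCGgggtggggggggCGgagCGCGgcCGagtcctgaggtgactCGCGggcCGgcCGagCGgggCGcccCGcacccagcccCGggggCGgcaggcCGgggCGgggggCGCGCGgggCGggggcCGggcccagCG
Wdr70: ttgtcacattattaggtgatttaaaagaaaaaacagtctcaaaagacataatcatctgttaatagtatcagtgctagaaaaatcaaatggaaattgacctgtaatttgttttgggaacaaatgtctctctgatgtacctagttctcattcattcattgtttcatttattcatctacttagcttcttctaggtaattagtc
Gm10800 (98507191): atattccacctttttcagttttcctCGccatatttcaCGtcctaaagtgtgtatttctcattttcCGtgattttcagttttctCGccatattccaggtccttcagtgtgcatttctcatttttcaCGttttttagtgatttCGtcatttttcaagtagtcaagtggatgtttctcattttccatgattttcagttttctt
Gm10800 (98506655): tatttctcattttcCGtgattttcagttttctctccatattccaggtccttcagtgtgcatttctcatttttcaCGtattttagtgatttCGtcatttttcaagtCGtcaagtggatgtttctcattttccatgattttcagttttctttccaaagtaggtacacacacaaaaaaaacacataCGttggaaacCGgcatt
Gm5428: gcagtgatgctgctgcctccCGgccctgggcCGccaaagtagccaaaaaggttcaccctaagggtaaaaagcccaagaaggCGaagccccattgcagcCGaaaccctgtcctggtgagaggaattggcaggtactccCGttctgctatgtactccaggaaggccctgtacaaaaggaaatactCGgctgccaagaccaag
Rfwd3: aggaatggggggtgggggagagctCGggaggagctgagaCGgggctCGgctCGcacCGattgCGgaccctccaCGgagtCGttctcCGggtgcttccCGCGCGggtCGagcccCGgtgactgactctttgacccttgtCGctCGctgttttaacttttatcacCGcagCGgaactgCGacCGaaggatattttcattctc
Snx21: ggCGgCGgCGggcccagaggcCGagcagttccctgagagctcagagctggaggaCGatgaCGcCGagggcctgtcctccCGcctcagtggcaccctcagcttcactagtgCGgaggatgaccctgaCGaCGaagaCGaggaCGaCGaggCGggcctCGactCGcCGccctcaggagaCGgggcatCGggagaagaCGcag
A930001N09Rik: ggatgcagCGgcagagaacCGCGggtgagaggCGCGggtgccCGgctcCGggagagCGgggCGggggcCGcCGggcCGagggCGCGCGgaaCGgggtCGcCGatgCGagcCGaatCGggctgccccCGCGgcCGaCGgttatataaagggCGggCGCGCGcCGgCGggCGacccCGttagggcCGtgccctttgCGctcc

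Members were crowded at one position. In the DOP-treated list the number of shared peaks rose from 255 in the first 25 bp after the start site to 1256 between 200 and 224 bp, fell to 229 between 450 and 474 bp, and rose again to 396 between 600 and 624 bp. The median distance was 279 bp in the DOP-treated list (quartiles 191 and 474 bp) and 281 bp in the untreated list (191 and 466 bp). From 150 bp to under 300 bp lay 39.3% of DOP-treated and 38.9% of untreated members. Shared peaks 1 to 1000 bp upstream were fewer, 4965 and 4979, with a median of 324 bp before the start site in the DOP-treated list.

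**Figure D1:**
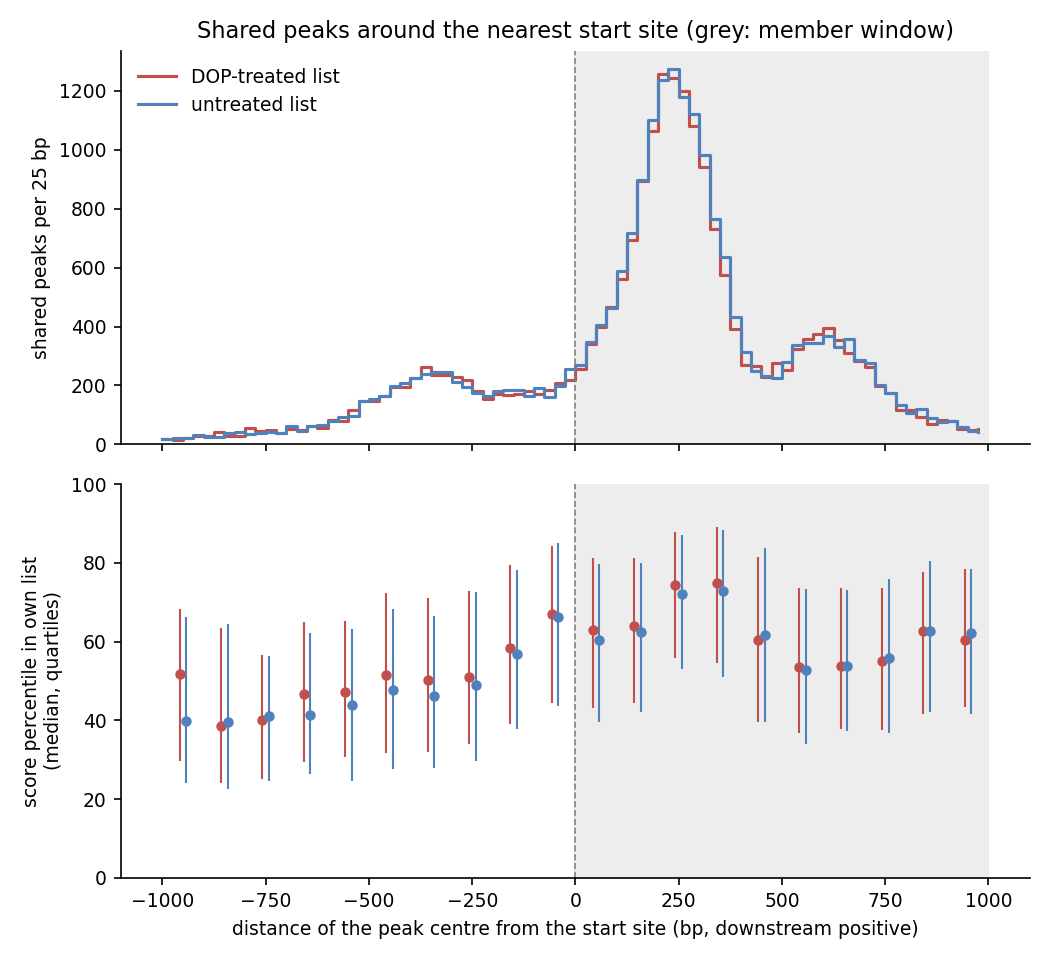
Upper panel, shared peaks per 25 bp against the distance of the peak centre from the nearest start site (bp, downstream positive) in the DOP-treated and untreated lists, with the member window in grey. Lower panel, the median and quartiles of the score percentile within each list per 100 bp, which was highest from 200 to 400 bp, at 74.4 and 74.9 in the DOP-treated list.

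The rank of a peak by its score changed with position. The score is the authors' value, in a unit that the lists do not define, and it is given here as a percentile within the list, with 100 for the highest peak. Members had a median percentile of 66.7 in the DOP-treated list (quartiles 45.9 and 84.0) and 65.1 in the untreated list (44.1 and 83.3). Shared upstream peaks had medians of 52.9 and 50, and downstream peaks found in 1 list only, 1664 and 1545 in number, had 28.5 and 30.2. Members were 15.8% in the top 10 percent of the DOP-treated list and made up 78.8% of that top 10 percent, with 15.1% and 79.2% in the untreated list. In the bottom 10 percent of their list were 144 DOP-treated and 223 untreated members.

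Within the window the highest median percentiles lay between 200 and 400 bp. DOP-treated members had medians of 74.4 between 200 and 300 bp and 74.9 between 300 and 400 bp. The interval from 100 to 200 bp, which held more members (3211) than that from 300 to 400 bp (2643), had a median of 63.9. From 500 to 800 bp, across the second rise in number, the medians were 53.5, 53.9 and 55.0 per 100 bp. The untreated list gave 72.1 and 72.9, then 52.8, 53.9 and 55.8, which is the same order. At the edges of the rule in the untreated list, 115 members in the first 10 bp downstream had a median percentile of 65.0, and 112 shared peaks 1 to 10 bp upstream, which were left out, had 71.5. The 12 members in the last 10 bp of the window had a median of 67.2, and the 17 shared peaks in the next 10 bp had 46.2. For the overlap, 168 untreated members whose centre was 180 bp or more from the nearest peak of the other list had a median of 42.3, and 136 unshared peaks just past the limit, at 200 bp to under 220 bp, had 42.1.

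Several members often followed 1 start site. Members lay at 10933 start sites in the DOP-treated list, with 1 member at 5564 of them, 2 at 4577 and 3 at 747. A single member had a median distance of 215 bp. Where there were 2, their medians were 227 and 562 bp, with median percentiles of 78.9 and 54.7, and the first ranked higher at 79.7% of these start sites. Where there were 3, the medians were 196, 342 and 692 bp, and the middle one had the highest median percentile, at 74.5 against 66.9 and 51.1. The untreated list gave 77.4 and 54.3 for 2 members, and 66.1, 74.4 and 52.1 for 3, so the order along the gene was the same.

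Spacings between neighbouring members of a start site fell into a pair of groups. In the DOP-treated list the counts per 25 bp had 1 top of 448 pairs between 100 and 124 bp and another of 674 between 325 and 349 bp, with 186 between 225 and 249 bp. The untreated list had tops of 543 at 100 to 124 bp and 696 at 350 to 374 bp. The median spacing was 319 bp (quartiles 179 and 379 bp) in the DOP-treated list and 312 bp (144 and 377 bp) in the untreated list. These medians depend on the length of the window, and were 150 and 133 bp when it ended at 500 bp. The lists differed mainly among close neighbours. Spacings under 200 bp numbered 1711 with DOP (27.6%) and 2160 without (32.8%), whereas 300 to 400 bp held 2247 and 2249. The intervals of such close peaks overlap each other, so that neighbouring members are not independent regions.

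**Figure D2:**
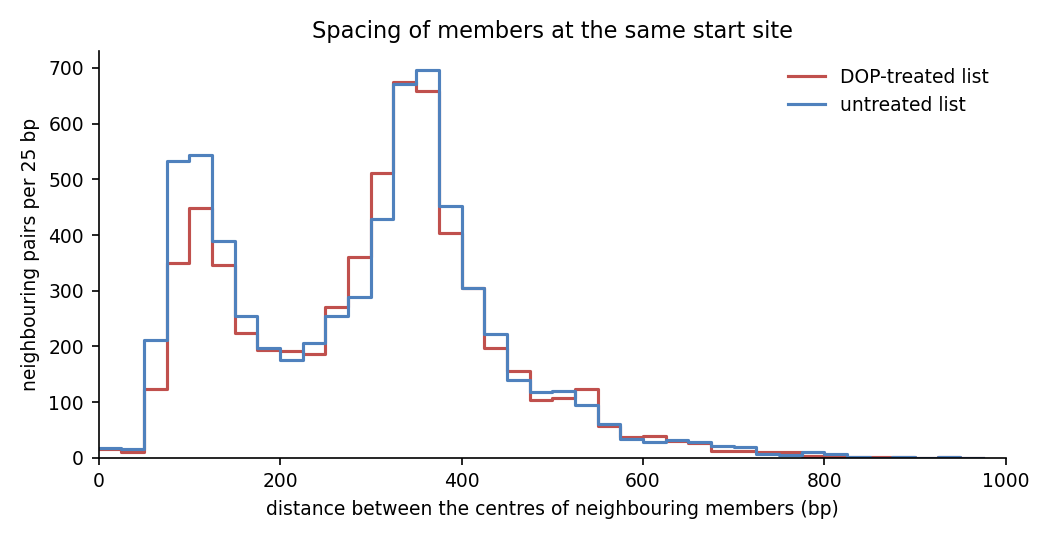
Number of neighbouring member pairs at 1 start site per 25 bp of the distance between their centres, for each list. Both lists have a top near 100 bp and a higher one near 350 bp, and the untreated list has more pairs at 75 to 99 bp, 532 against 349.

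By annotation at the centre, 58.4% of DOP-treated members lay in an intron (57.6% to 59.1%), 20.3% in a coding exon, 18.1% in a 5′ UTR and 0.403% in a 3′ UTR. The untreated list gave 58.8%, 20%, 17.9% and 0.417%. The first exon of the nearest start site held 33.9% of DOP-treated members, and the median length of that exon was 193 bp. The share in introns rose from 11.4% in the first 100 bp to 43.4% between 100 and 200 bp and 80.5% between 600 and 700 bp.

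Member intervals were rich in G and C. The median GC content was 64.5% in both lists, with quartiles of 57.0% and 71.5% in the DOP-treated list. Shared upstream peaks had a median of 58.5%, downstream peaks of 1 list only had 54.5% in the DOP-treated and 52.5% in the untreated list, and windows from 200 to 400 bp downstream of all annotated start sites had 56.0%. CpG dinucleotides were present at a median of 0.743 of the number expected from the bases in DOP-treated members, against 0.680 in upstream and 0.505 in one-list peaks. A member of 200 bp held a median of 15 CpG. GC content fell over the first 800 bp, from a median of 67.5% in the first 100 bp to 66.0% between 300 and 400 bp and 53.5% between 700 and 800 bp, and was 56.0% and 55.0% in the last pair of intervals.

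**Figure D3:**
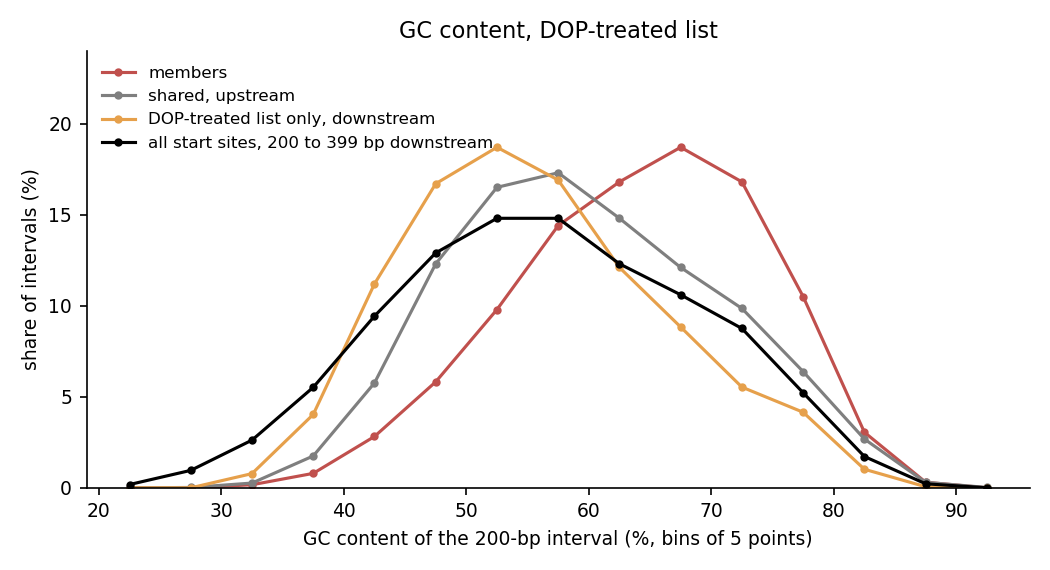
Share of intervals of the DOP-treated list per 5 points of GC content, for members, shared upstream peaks, downstream peaks of that list only and windows 200 to 400 bp downstream of all annotated start sites. Members lie furthest to the right, with 18.7% of them between 65% and 70% GC.

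GC content and score moved together among members. The 1647 DOP-treated members under 50% GC had a median percentile of 40.9 (quartiles 28.1 and 56.4), against 69.4 (49.7 and 85.4) for the others, and the untreated list gave 40.8 and 67.8. Position moves with both values, and its part in this difference was not tested. The lowest GC contents were 30.0% in Wdr70, 31.5% in Asnsd1 and 31.5% in Lims1, an adaptor of focal adhesions, at percentiles 17.1, 33.4 and 40.8, and all 3 centres lay in introns 589 to 814 bp downstream. The highest were 89.5% in Camta1, 89.0% in Zfpm1, a cofactor of GATA factors, and 88.5% in 2700081O15Rik, at percentiles 84.3, 70.2 and 93.3 and between 116 and 291 bp downstream. The printed Camta1 and Wdr70 sequences show the contrast in CpG.

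Short motifs were counted on both strands as plain descriptions of sequence. The GC box gggcgg was present in 36.3% of DOP-treated members, 31.1% of shared upstream peaks and 23.5% of windows of equal length downstream of all start sites. The ETS core ccggaa was present in 10.1%, 9.81% and 7.45%. Motifs rich in A and T were less frequent than in those windows, with 1.89% against 5.92% for the TATA box tataaa and 11.6% against 18% for ccaat. The AP-1 motif tgantca was present in 2.02% against 3.56%, the E box cacgtg in 3.24% against 3.08%, the NRF1 core tgcgca in 4.13% against 3.22%, the YY1 core aagatggc in 1.25% against 1.21% and the CRE tgacgtca in 0.187% against 0.226%. These shares move with base composition, and a match is not a bound site.

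Members were nearest to 10091 genes in the DOP-treated and 10066 in the untreated list, and 9945 genes had a member in both, which is 44.5% of the 22372 protein-coding genes with an annotated coding transcript. Of the 10091 genes with DOP-treated members, 146 had no untreated member. Of the 10066 with untreated members, 121 had no DOP-treated member. By the rule, each member of these genes still overlapped a peak of the other list, which was not a member of that gene. Their regions were therefore not called in 1 list alone. Of the 10091 genes, 42.9% had 1 DOP-treated member, 46.2% had 2, and 1102 genes had 3 or more. In the untreated list 1254 genes had 3 or more.

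Genes with the most members had several start sites. Plec, which encodes the cytoskeletal linker plectin and has 15 annotated start sites on chromosome 15, had 8 members in each list. They followed 6 of its start sites, and their percentiles ran from 55.5 to 90.9 in the DOP-treated list. Cic, the gene of the repressor capicua, had 7 in each list, between percentiles 43.4 and 78.9 in the DOP-treated list. Lmna, which encodes the nuclear lamins A and C, had 6 in each. Its highest member reached percentile 99.3 in the DOP-treated and 99.7 in the untreated list, in a coding exon 384 and 313 bp downstream, while those after its most 5′ start site ranked between 37.0 and 50.2 in the DOP-treated list. Rai1, a regulator of transcription, had 6 and 5, with a pair of them above percentile 97 in both lists and the others at 60.0 or lower in the DOP-treated list. Arhgap23, a GTPase-activating protein gene, had 5 and 6.

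Genes used by every cell often carried members. Among gene lists, 74 of 76 cytosolic ribosomal protein genes (97.4%, Wilson interval 90.9% to 99.3%) and 34 of 38 proteasome subunit genes (89.5%, 75.9% to 95.8%) had a member in both lists, to be read against 44.5% of all genes. The 2 ribosomal protein genes without were Rpl12 and Rps15a. Of the olfactory receptor genes, which sensory neurons use, 1 of 1113 had a member in both (0.0898%). It was Olfr331, with a score of 51.0 at percentile 3.81 with DOP and 54.0 at 4.96 without.

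The highest proteasome and ribosomal members ranked near the top of both lists. Psmd7, a lid subunit of the regulatory particle, scored 2399 with DOP and 2901 without, at percentiles 99.6 and 99.8. Psmd3, another lid subunit, scored 1848 and 1826. Rps15, of the small ribosomal subunit, scored 2359 and 2459, and Rps3a scored 1734 and 2227. All 4 pairs stayed within 2 percentile points between the lists.

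Of 10 markers of neural progenitors, the labelled cell type, 3 had a member in both lists (30.0%, 10.8% to 60.3%), and the interval includes the 44.5% of all genes. Vim, an intermediate filament gene, scored 1716 with DOP and 1283 without, at percentiles 98.0 and 94.0. Ranked among genes by the summed score of all peaks 0 to 1000 bp downstream, a measure added after the pairs had been seen, Vim stood at 78.4 with DOP and 87.8 without, the opposite order. Sox9, a transcription factor gene, scored 991 and 854, and the receptor gene Notch1 scored 581 and 428. Nes, Sox2, Pax6 and Sox11 had no member and no peak assigned within 10 kb in both lists, whereas Hes1 and Msi1 had such a peak but no member in both. No member in both lists was found for 10 mature striatal neuron markers, among them Drd2 and Penk (0 of 10, upper bound 27.8%), for 6 astrocyte markers (upper bound 39.0%), 6 oligodendrocyte markers (39.0%), 5 microglia markers (43.4%) or 4 endothelial markers (49.0%). Peaks within 10 kb in both lists, without a member in both, were present for Pde10a and Ppp1r1b, S100b and Slc1a2, and Mog. These are striatal neuron, astrocyte and oligodendrocyte markers, in that order. Besides, 1 astrocyte marker had a member in the untreated list and none in the DOP-treated list. A peak list does not give transcript levels, and the makeup of the culture cannot be read from it.

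Hox genes, which set position along the body axis, carried members at 16 of 39 genes (41.0%, 27.1% to 56.6%), close to the 44.5% of all genes. The ranks of the members ranged widely. Hoxb9 scored 1734 with DOP and 1902 without, at percentiles 98.1 and 98.6, 795 and 860 bp downstream. Hoxb8 scored 1310 and 1385, at percentiles 94.2 and 95.2, and Hoxb6 and Hoxb2 were above percentile 91 in both lists. Members of the HoxC genes ranged from 89.6 and 79.6 for Hoxc6 to 44.5 and 37.8 for Hoxc8. Percentiles of HoxA members were 52.5 and 54.8 for Hoxa10 and 34.6 and 29.9 for Hoxa7. They lay further apart for Hoxa5 (56.6 and 30.8), Hoxa4 (48.2 and 27.8) and Hoxa3 (40.3 and 23.9). These were the 3 of 16 Hox pairs that ranked higher by 10 points or more with DOP, and 0 ranked lower by that much. Each gene was taken here by its highest-ranked pair. Over all shared pairs, members or not and of any rank, 16.9% were higher and 10.5% lower, so the sets are unlike. In the HoxD cluster Hoxd3 alone had a member in both lists, and it ranked at 12.7 and 2.93.

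SPL, the enzyme that DOP inhibits, acts in sphingolipid metabolism. Of 34 annotated genes listed for sphingolipid metabolism and S1P signalling, 19 had a member in both lists (55.9%, 39.5% to 71.1%). This interval includes the 44.5% of all genes. Sgpl1, which encodes SPL itself, had 1 member in each list. The DOP-treated member lay in an intron from 60610014 to 60610213 on chromosome 10 (mm9), 279 bp after 1 start site, at percentile 97.0. The untreated member lay in the 5′ UTR from 60609388 to 60609587, 159 bp after another start site, at percentile 97.9. These are different positions of the gene. The lists held 3 and 4 further peaks within 10 kb of the gene's start sites that were not members. By the rule, each of the Sgpl1 members overlapped a peak of the other list that was not a member of Sgpl1. Neither position was therefore called in 1 list alone. The highest pairs of the group were at Lass5, a ceramide synthase gene (scores 1418 and 1384), and Sgms1, a sphingomyelin synthase gene (1176 and 1033).

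Of the 18 sphingolipid genes whose members formed a pair between the lists, 4 ranked higher by 10 points or more in the DOP-treated list and 0 ranked lower by that much. Only the highest-ranked pair of each gene was counted. Over all shared pairs of the lists, members or not and of any rank, 16.9% were higher and 10.5% lower by that limit. The sets are therefore unlike. The 4 were Smpd2, a neutral sphingomyelinase gene (percentile 94.4 with DOP and 67.9 without), Sgpp1, an S1P phosphatase gene (86.2 and 59.4), Smpd1, the acid sphingomyelinase gene (56.0 and 33.7), and Lass1, a ceramide synthase gene (40.0 and 13.2). The genes of sphingosine kinase Sphk2 (65.5 and 64.8), the ceramidase Asah1 (85.8 and 86.3) and the S1P receptor S1pr2 (87.1 and 88.0) differed by less than 1 point. With 1 list per condition these differences have no error. For the 4 genes that ranked higher, the peaks nearby and the summed score are not given here. As with Vim, the order of a pair may differ from that of the summed score.

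Enzymes that write and remove the mark had members at their own genes. Of 17 listed symbols of histone acetyltransferase genes, 13 were found in the annotation. All 13 had a member in both lists (Wilson interval 77.2% to 100.0%), and so did 8 of 11 listed histone deacetylase genes (72.7%, 43.4% to 90.3%). Of all genes 44.5% had one, which the second interval includes. Ep300, which encodes the acetyltransferase p300, held the highest pair outside predicted genes. It scored 3512 in the DOP-treated list, at rank 49 and 301 bp downstream, and 4908 in the untreated list, 365 bp downstream, in the 5′ UTR on chromosome 15 from 81415983 to 81416182. Ncoa3, a coactivator gene, scored 1760 and 1715, and Crebbp, the paralogue of Ep300, scored 1113 and 1153. The gene with the largest difference in this list was Taf1, a TFIID subunit, at percentile 61.3 with DOP and 24.2 without, while Hat1 went from 91.0 without to 72.9 with DOP.

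Hdac1 and Hdac2 encode the class I deacetylases whose activity S1P is known to affect. Hdac1 had 1 member in each list, which scored 1295 with DOP and 1151 without, at percentiles 94.0 and 91.5. Hdac2 had 1 DOP-treated member, which scored 1260 (percentile 93.4), and 2 untreated members at percentiles 95.2 and 92.2, the first of them 33 bp after the start site. Its paired members at 340 and 396 bp differed by 1.23 points, with the DOP-treated one higher. The summed score of Hdac2, with its extra untreated member, ranked at 79.7 with DOP and 95.7 without. Hdac7, a class IIa gene, had the highest pair, with scores of 2058 and 1275, and Hdac10 went from percentile 60.0 without DOP to 85.5 with it. Hdac4, Hdac6 and Hdac9 had no member in both lists.

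Immediate early genes respond quickly to growth factors and stress, and the cells were without serum in both groups. Of 21 such genes 15 had a member in both lists (71.4%, 50% to 86.2%), against 44.5% of all genes. Junb scored 1745 with DOP and 1494 without, and Fosl2 scored 1807 and 1303, both AP-1 subunits above percentile 94 in each list. The summed score of Junb ranked the other way, at 79.2 with DOP and 93.1 without, while that of Fosl2 ranked at 80.8 and 65.3. Fos, Fosb, Jun, Egr2 and Egr3 had peaks within 10 kb in both lists but no member in both. Among the 15 pairs, the highest-ranked of each gene, 2 ranked higher and 3 lower by 10 points or more with DOP. The shares over all shared pairs, of any rank, were 16.9% and 10.5%. The furthest apart in each direction were Arc, whose product acts at synapses (31.7 with DOP and 63.6 without), and Zfp36, an mRNA decay factor gene (75.3 and 48.6).

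Among other genes named by the study, Htt, the huntingtin gene, had 1 weak member in each list. It scored 138 with DOP and 110 without, at percentiles 15.1 and 12.6, in an intron on chromosome 5 from 35104838 to 35105037, 498 and 547 bp downstream. Its summed score ranked the other way, at 3.7 with DOP and 14.5 without. Tns1 had no member. Tcf12, a helix-loop-helix factor gene, had 3 members in each list. Its paired member at 273 bp scored 914 with DOP and 1788 without, and the one at 753 bp scored 1059 and 938. The third member lay at 347 bp with DOP (percentile 91.9) and at 505 bp without (74.2). The summed score of Tcf12 ranked at 96.9 with DOP and 97.5 without. Ahnak, which encodes a giant scaffold protein, had 2 DOP-treated and 3 untreated members. Its paired members at 226 and 549 bp ranked 12.2 and 11.2 points higher with DOP, whereas its summed score ranked at 95.7 and 94.5. The pair of Bcl2l11, the gene of the cell death protein Bim, ranked at 89.0 and 85.3, whereas its summed score ranked at 53.0 and 74.8. The pair of Sp1 ranked at 85.6 and 68.2, and those of Actb at 90.1 and 87.1 and at 98.9 and 86.3. Their summed scores ranked at 61.4 and 46.4 for Sp1 and at 96.6 and 97.5 for Actb. More untreated than DOP-treated peaks lay within 300 bp at both Ahnak pairs, at Sp1 and at the second Actb pair.

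The very highest members lay in predicted genes. Of the 10 pairs with the highest mean percentile, 9 belonged to the predicted genes Gm10800, Gm10718, Gm10722, Gm10721, Gm10719 and Gm11167. The highest scored 112288 with DOP and 94658 without in Gm10800, a value far above that of Ep300. Words of 12 bases found 3 or more times in the surrounding 1 kb to each side made up between 51.3% and 93.7% of these 9 intervals, and their GC content was 34.0% to 38.0%. The level at such copies is uncertain, since how reads with several alignments were placed is not given in the sources used here. Only 30 of all 15374 member pairs had 25% or more of such words. The 5 lowest pairs were also in predicted genes, Gm5428, Gm4353, Gm10190, Gm9000 and Gm10159, with scores between 21.0 and 41.0.

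Leaving out predicted genes and repeated sequence, a choice made after these values were seen, the highest 12 pairs ranked above percentile 99 in both lists. They were at Ep300, Csnk2a2 (a catalytic subunit of casein kinase 2), Rfwd3, Nfat5 (an osmotic stress factor, 2 pairs), Cbfb (the partner of RUNX factors), St3gal2 (a sialyltransferase), Hexim2, 2310036O22Rik, Hnrnph3 and Ddx17 (both RNA-binding proteins) and Atxn1l. Csnk2a2 scored 2859 with DOP and 4139 without, Rfwd3 3438 and 3317, and the higher Nfat5 pair 3359 and 3234. Their GC content ran from 61.5% in Rfwd3 to 86.0% in Csnk2a2. Chromosome 8 held 8 of these 12 pairs and 23 of the highest 100, while it held 5.83% of all 15123 such pairs.

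The rank of members differed between chromosomes, and in nearly the same order in both lists. The median percentile was lowest on the X chromosome, at 43.2 in the DOP-treated list (438 members, quartiles 30.7 and 56.9) and 41.6 in the untreated list (453 members, 27.0 and 56.2). On chromosome 15 it was highest, at 78.0 (744 members, quartiles 56.6 and 91.6) and 76.6 (759 members, 54.0 and 91.3). Chromosomes 3, 8 and 10 followed, at 75.8, 75.7 and 75.5 with DOP and 73.6, 75.9 and 74.7 without, and their order among themselves was not tested. Chromosomes 12 and 7 were low, at 55.2 and 57.5 with DOP. In the top 10 percent of the DOP-treated list were 28.0% of the members on chromosome 15 and 26.0% on chromosome 8, against 1.83% on the X chromosome. Shared upstream peaks, which are not members, had medians of 62.0 on chromosome 15 and 34.5 on the X chromosome. The median GC content of members was 64.0% on chromosome 15 and 60.8% on the X chromosome, and the cause of the difference was not tested. The Y chromosome had no members among 1 DOP-treated and 2 untreated peaks.

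**Figure D4:**
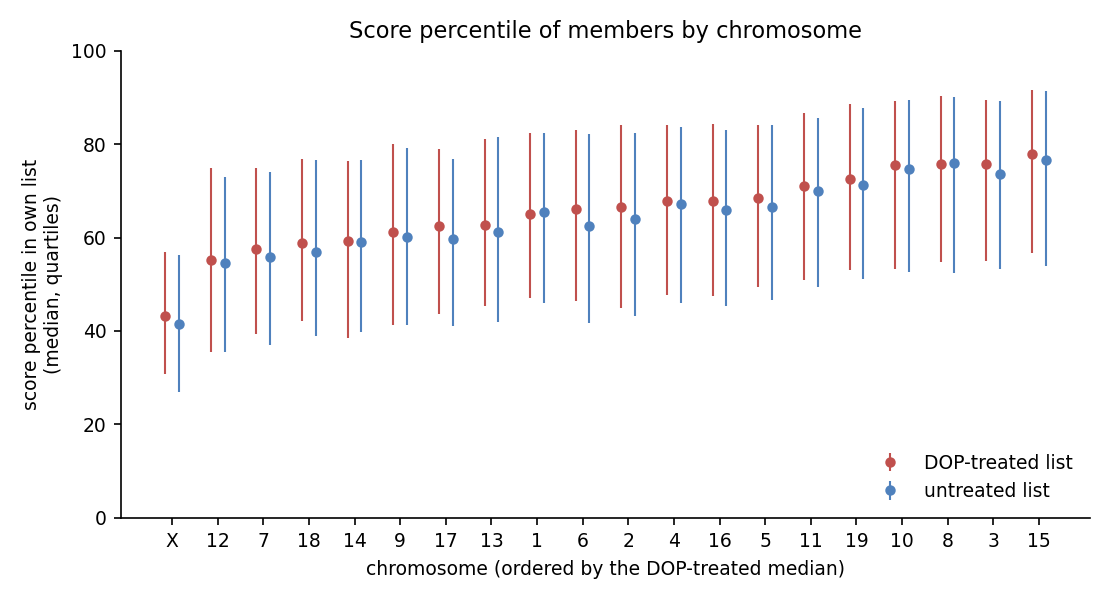
Median and quartiles of the score percentile of members within each list, by chromosome in the order of the DOP-treated medians. The X chromosome is lowest, at 43.2 and 41.6, and chromosome 15 highest, at 78.0 and 76.6, and the medians of the lists lie close together on each chromosome.

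To set the lists side by side, each member was paired with the overlapping member of the other list when each was the other's nearest, which gave 15374 pairs. Their centres were a median of 29 bp apart (quartiles 12 and 56 bp), with 21.8% within 10 bp, and the median shift along the gene was 0 bp. Percentiles of the pairs had a Spearman correlation of 0.860 across pairs, which are not independent replicates. The DOP-treated percentile was higher by a median of 0.832 points (quartiles -3.84 and 6.78), against 1.34 over all 25377 shared pairs. A percentile depends on the other peaks of its list, and 80.0% of DOP-treated but 83.3% of untreated peaks were shared. The part of this in the differences between the lists was not tested. Higher by 10 points or more were 2665 pairs (17.3%), against 16.9% of all shared pairs, and lower by as much were 1874 (12.2%), against 10.5%. Both shares are near those of all shared pairs.

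**Figure D5:**
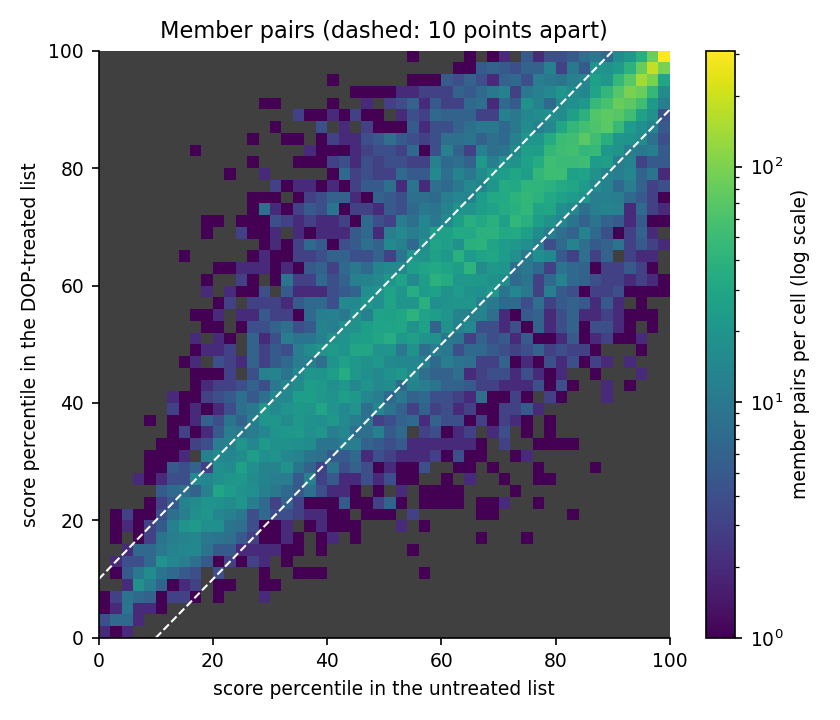
Number of member pairs (log colour scale) by their score percentile in the untreated list and in the DOP-treated list, with dashed lines at a difference of 10 points. Between the lines lie 70.5% of the 15374 pairs.

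Pairs that ranked apart also differed in the peaks around them. Of the 2665 pairs that ranked higher with DOP, 56.3% had more untreated than DOP-treated peaks within 300 bp, against 8.28% of the pairs within 10 points. Of the 1874 that ranked lower, 57.2% had more DOP-treated peaks nearby, against 8.63%. Among the 10910 pairs with equal numbers of peaks nearby, 10.4% ranked higher and 7.06% lower by 10 points or more.

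The pairs with the largest differences follow from their choice and are given as a description. Higher with DOP were Anp32e, the gene of a histone H2A.Z chaperone (scores 906 and 140, percentiles 83.6 and 16.7), Hist4h4, a histone H4 gene (1181 and 227), Snx21 (1173 and 250), Zfp653 (914 and 209) and Itfg3 (819 and 189). The Snx21, Zfp653 and Itfg3 pairs had more untreated peaks within 300 bp, and Anp32e and Hist4h4 had 2 peaks of each list. Hist4h4 is a member of a family of genes with similar coding sequence, and whether reads were shared between them was not tested. Lower with DOP were A930001N09Rik (188 and 844, percentiles 21.9 and 82.2), Mmd (153 and 702), Bod1, a kinetochore protein gene (240 and 949), Syap1 (203 and 732) and Mrpl10, of the mitochondrial ribosome (227 and 758). All 5 of these had 2 DOP-treated peaks and 1 untreated peak within 300 bp. The summed scores differed less between the lists. With and without DOP they ranked at 58.8 and 54.8 for Snx21, 44.5 and 41.2 for Zfp653, and 39.0 and 35.1 for Itfg3. They ranked at 57.1 and 65.1 for A930001N09Rik, 42.8 and 48.8 for Bod1, 41.2 and 46.9 for Syap1, and 38.8 and 47.8 for Mrpl10. For Mmd the order was reversed, at 55.2 and 45.2. Among the gene lists the widest differences were at Psma6, a core proteasome subunit (89.4 with DOP and 37.5 without), and Rps13, of the small ribosomal subunit (43.1 and 92.4). For Psma6 and Rps13 the peaks nearby and the summed scores are not given here. The same holds for Hdac10, Taf1, Hat1, Arc, Zfp36 and the HoxA pairs.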

How the data were processed

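H3K9ac ChIP-seq reads were aligned by the authors to mm9, with Bowtie 2 according to the paper's methods and with BWA 0.7.10 according to the submitters' processing notes. Peaks were called with GPS according to the paper's methods, and 1 list per condition was deposited. In each condition the list used here holds more peaks than the paper reports. The reason is not given in the sources used here, so these lists are not the peak sets counted in the paper. The deposited score of each peak is in a unit the files do not define, so it served only to rank peaks within a list. How the 2 samples and the IgG sample entered the call, the threshold and the depth per sample are not given in the sources used here. All peaks but 1 are intervals of 200 bp, and the called position may be off by 1 bp, as its counting base is not stated.

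Members, percentiles, spacing and pairs were computed with Python 3.11.15, numpy 2.4.6, pandas 2.3.3, scipy 1.17.1 and intervaltree 3.1.0, and figures with matplotlib 3.10.9. Start sites and annotation at the peak centre came from GENCODE vM1, with coding exon taking precedence over UTR, other exon and intron. Each centre was given to its nearest start site. Sequence was read from the NCBIM37 assembly, whose chromosome lengths no peak exceeded. A peak was counted within 10 kb of a gene when that gene's start site was its nearest. The functions were tested on simulated lists. Shares have 95% Wilson intervals, and no test was run, since each condition has 1 list.

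Named genes were the 10 highest and 5 lowest pairs by mean percentile, the 5 genes with most members, the 5 largest percentile differences in each direction, the 3 lowest and 3 highest GC contents, 10 genes the study bears on, and the 2 highest genes of each gene list. Other members of those lists, and the chromosomes, were described after their values were seen. Each gene of a gene list was represented by its pair with the highest mean percentile. A result for 1 listed marker gene is not reported here. The members and lists were chosen with earlier results of these data known. Alternatives covered the overlap, window, start sites and score filters.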

Additional observations from a re-analysis of the deposited data

How the results depend on the processing

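No paired analysis was possible because the deposited lists hold a single joint call for each condition, with no columns for replicates, and no replicate was left out in turn because of this. Of 94 alternative values, 58 stayed within their limit, which was 1.5 times for counts and the 95% interval of the median for medians, and 36 did not. None changed direction. Values are given for the DOP-treated and then the untreated list, and the cause was not tested beyond what each setting removes.

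With a reciprocal overlap of at least 50%, the median percentile was 68.7 and 66.9, the distance 270 and 271 bp and the spacing 330 and 324 bp. A window of 0 to 500 bp gave 69.9 and 68.0, 237 and 238 bp, a GC content of 66.5% and 66.5%, and a spacing of 150 and 133 bp, since the wide spacings need the longer window. Start sites of all transcripts gave distances of 257 and 258 bp, and the most 5′ start site of each gene gave 327 and 328 bp, with an untreated percentile of 65.8 and spacing of 318 bp. The top 50% of each list left 11298 and 11464 members, with percentiles of 78.7 and 77.9, distances of 271 and 272 bp, GC contents of 67.0% and 67.0%, and 1470 pairs higher and 1122 lower by 10 points. A score of at least 100 gave percentiles of 67.3 and 65.8. GC content over 1 kb was 59.5% and 59.5%.

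Only pairs with equal numbers of peaks nearby, chosen after the data were seen, left 1137 higher and 770 lower. Also chosen afterwards, leaving out predicted genes and repeated sequence kept the count of members, the median percentile and the GC content within their limits in both lists. The depth of the libraries is unknown, so how many weak members fall near the threshold of the call is not known.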

Other observations

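Along chromosome 8, which held 8 of the 12 highest pairs outside predicted genes, members did not rank alike. The window was chosen after these values were seen. Between 100 and 120 Mb the median percentile was 85.8 in the DOP-treated list (199 members, quartiles 65.2 and 97.1) and 88.5 in the untreated list (196 members, 69.1 and 96.5). The next 20 Mb gave 72.3 and 74.0, and the first 20 Mb gave 67.2 and 67.9. The cause was not tested.

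Counted by gene, 1344 genes had more members in the DOP-treated list, 1667 had more in the untreated list and 7201 had equal numbers. When the scores of all peaks 0 to 1000 bp downstream were summed for each gene and ranked within the list, a measure added after the pairs had been seen, 808 of the 9945 genes with a member in both lists ranked higher by 10 points or more with DOP (8.12%) and 626 ranked lower (6.29%). For Mmd the summed score ranked at 55.2 with DOP and 45.2 without, the opposite order to that of its pair, and the summed scores of Vim, Hdac2, Junb, Htt and Bcl2l11 also ranked opposite to their pairs. Opposite orders with smaller differences in the summed score were found for Hdac1 (64.4 with DOP and 68.0 without), Rps3a (91.8 and 88.9), Psmd3 (90.3 and 93.0), Actb (96.6 and 97.5), Hdac7 (96.3 and 96.5), and, by less than 1 point, for Psmd7, Rps15, Rfwd3 and 1 pair each of Tcf12, Nfat5 and Gm10722. The summed scores of Anp32e ranked at 93.3 and 86.3, and those of Hist4h4 at 85.2 and 73.8, so they kept the order of their pairs with a smaller difference.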
